A study of Mus musculus with 6 samples.

Results

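Cholesterol synthesis, uptake and efflux were followed through 32 genes, taken by gene symbol from the 47480 rows of a deposited expression table of mouse chondrocytes, the cells of cartilage. All 32 symbols were present in the table. They cover 17 enzymes of cholesterol synthesis, 5 genes that control the transcription factors of the pathway, 5 genes of transport inside the cell, storage and oxysterol formation, and 5 genes of the liver X receptors (LXR) and their targets. Primary chondrocytes of neonatal mice without the adenosine receptor encoded by Adora2a (A2ARKO, a global knockout bred on C57BL/6) were compared with those of wild-type C57BL/6 mice (WT). There were 3 libraries in each group. The RNA of 1 library came from trypsinized cells of a whole litter, mixed, so n counts litter pools, and p-values measure the spread between pools. The sources used here do not give sex, passage or culture time.

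Cholesterol is built from acetyl-CoA in a chain of enzymes that first makes mevalonate and isoprenoids, then squalene, then the ring-bearing sterols. When membranes are poor in sterol, SCAP carries the SREBP transcription factors from the endoplasmic reticulum to the Golgi, where they are cut and set free to switch on the genes of synthesis; INSIG proteins hold SCAP back when sterol is plentiful. Oxysterols also activate LXR, which switches on the efflux pumps ABCA1 and ABCG1 and MYLIP, a ubiquitin ligase that removes lipoprotein receptors. In cartilage, cholesterol handling and the oxysterol enzyme CH25H have been studied in relation to osteoarthritis, the disease named in the study's design.

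The deleted gene was low in the knockout libraries. Adora2a read 9.36, 7.31 and 3.46 FPKM (fragments per kilobase of gene, scaled to the depth of the library) in the WT pools, against 0.41, 0.54 and 0.66 in the A2ARKO pools, and the groups did not overlap. The log2 fold change of -2.25 had a standard error (SE) of 0.31 (limma adjusted p = 0.0203; two-sided exact permutation p = 0.1, the smallest that 3 against 3 libraries allow). Adora2a did not pass limma without WT replicate 2 (adjusted p = 0.0582) or when A2ARKO replicate 1, 2 or 3 was left out (0.0824, 0.0955 and 0.0864). From steps between low values, library depth was estimated at 41.6 to 58.1 M (mega) reads. The WT libraries differed in makeup. The summed FPKM of 12 chondrocyte markers was 26125, 1363 and 495 in WT replicates 1, 2 and 3 and 2310, 4666 and 6527 in A2ARKO replicates 1, 2 and 3. Of the 12, 11 had log2 fold changes above 0 (median 0.999) and 0 were called by limma. None lay higher or lower in each A2ARKO library, against 18.0% and 14.9% of all tested genes. Col2a1, which encodes the main cartilage collagen, read 18662 FPKM in WT replicate 1 but 185 FPKM in WT replicate 3. Fibroblast markers were lower in the A2ARKO pools: the sum of 7 was 9147, 7132 and 6302 FPKM for the WT pools, against 4617, 3199 and 3457 for the A2ARKO pools. Of the 7, 4 lay lower in each A2ARKO library (57.1%, against 14.9% of all tested genes) and 3 had log2 fold changes above 0. At an unadjusted p below 0.05 there were 5 of the 7, against 24.7% of all tested genes. Col1a1, a collagen of fibroblasts, read 5256, 3672 and 3397 FPKM in WT, against 2393, 1337 and 1139 in A2ARKO, and did not pass (log2 difference -1.39, limma adjusted p = 0.121). Dpt, an extracellular matrix gene, was called lower (-2.22), but not without WT replicate 1 or 2 (limma adjusted p = 0.0535 and 0.0742) or when A2ARKO replicate 1, 2 or 3 was left out (0.0640, 0.134 and 0.144). The sum of 12 macrophage and other leukocyte markers came to 196, 1970 and 136 for the WT pools, against 48.5, 23.05 and 17.65 for the A2ARKO pools. The sum of 6 skeletal muscle markers was 936 in WT replicate 2 and between 7.29 and 29.8 in the other libraries.

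**Figure D1:**
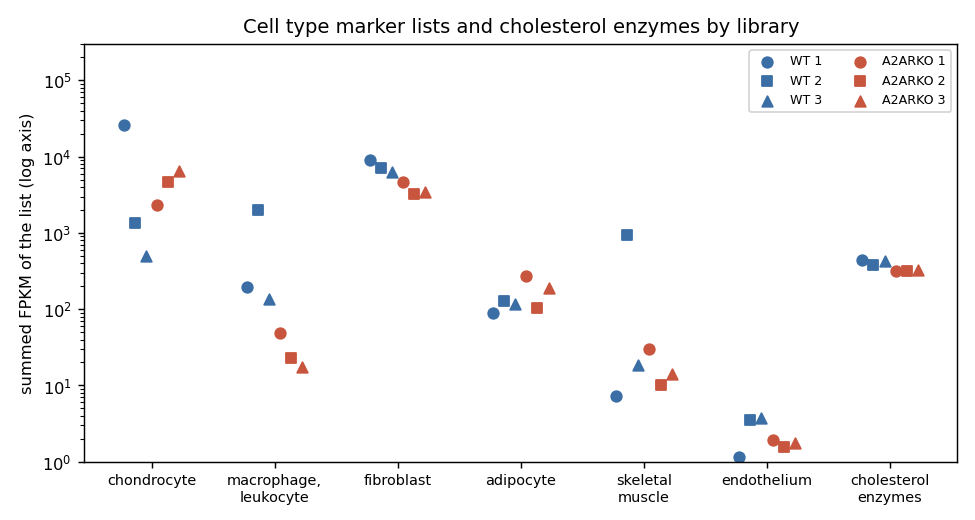
Summed FPKM (log axis) of 6 fixed cell type marker lists and of the 17 cholesterol enzymes in each library; blue points are the WT litter pools and red points the A2ARKO pools. WT replicate 1 stands apart in chondrocyte markers (26125) and WT replicate 2 in macrophage (1970) and muscle markers (936), while the enzyme sums lie between 381 and 438 in WT and between 314 and 326 in A2ARKO.

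Most synthesis enzymes read lower in A2ARKO chondrocytes, while the LXR gene Nr1h3 was about 2-fold higher and the LXR target gene Mylip about 2-fold lower. Of the 32 genes, 31 passed the filter of at least 1 FPKM in at least 3 of the 6 libraries. Limma called 5 of these 31 lower (Hmgcs1, Mvd, Cyp51, Tm7sf2 and Mylip), where 1.77% of all tested genes were called lower, and 1 higher (Nr1h3), where 3.31% were called higher. The other 25 did not pass. The median log2 fold change of the 31 genes was -0.18, against 0.0020 over the 11595 genes tested; it ranged from -0.25 to -0.10 with each library left out, and was -0.10 without WT replicate 1. With any A2ARKO library left out, 0 of the 31 were called. Calls over all 11595 tested genes, 384 higher and 205 lower with every library, also fell in these fits. They were 84 and 36 without A2ARKO replicate 1, 39 and 11 without replicate 2, and 54 and 21 without replicate 3. With the FPKM of every library in view, 11 of the 31 genes lay lower in each A2ARKO library than in each WT library, or 35.5%, against 14.9% of all tested genes. A further 5 lay higher in each A2ARKO library, or 16.1%, against 18.0% of all tested genes. In RNA from pooled cells, fewer cells that express a gene and less RNA per cell cannot be told apart.

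**Figure D2:**
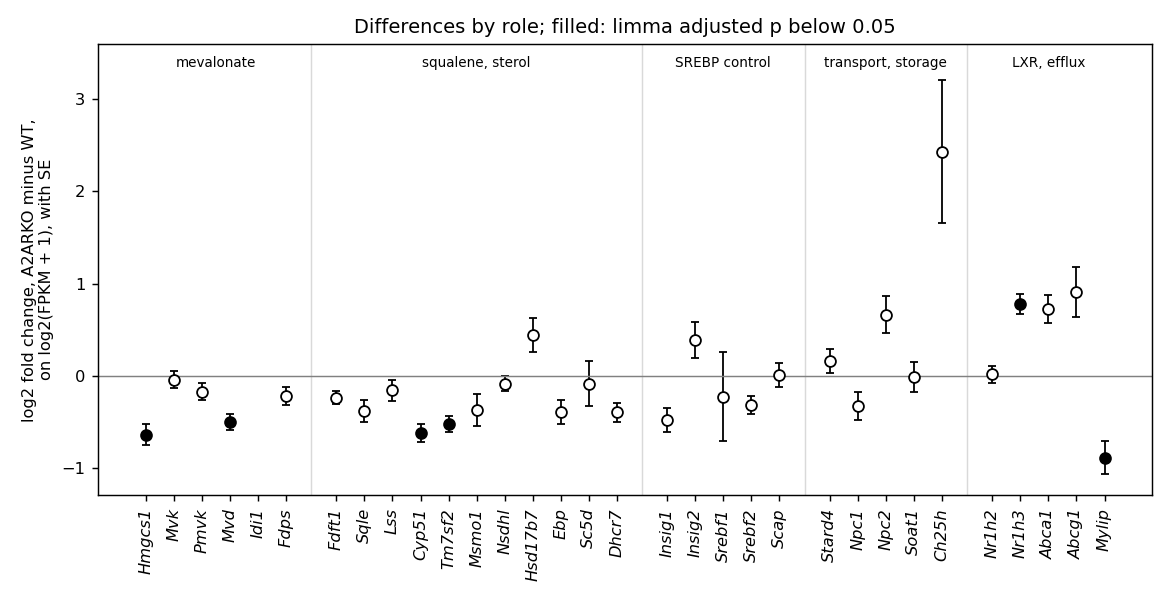
Log2 fold change (A2ARKO minus WT, on log2(FPKM + 1)) with its standard error for the 31 tested genes, ordered by role; filled points have a limma adjusted p below 0.05. Of the 16 tested synthesis enzymes 15 lie below 0, and the largest positive value, Ch25h at 2.43, has a standard error of 0.78.

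Of the 17 synthesis enzymes, 16 passed the filter. Limma called 4 of these lower and none higher, and 12 did not pass. By unadjusted p, 8 of the 16 lay below 0.05, against 24.7% of all tested genes. The median log2 fold change of the 16 was -0.31, 15 of them lay below 0 (49.6% of all tested genes did), and 8 lay lower in each A2ARKO library than in each WT library (50%, against 14.9% of all tested genes). None lay higher in each A2ARKO library. Summed over the 17 enzymes, WT pools held 438, 381 and 425 FPKM, against 314, 319 and 326 in the A2ARKO pools, so that the sums did not overlap. The fibroblast marker sums were also lower in every A2ARKO pool, and their part in the enzyme values was not tested. The number of enzymes called lower was 4, 2 and 5 with WT replicate 1, 2 or 3 left out, and 0 with any A2ARKO replicate left out. Without A2ARKO replicate 1, 2 or 3, the median of the 16 enzymes was -0.28, -0.29 and -0.32. In these fits the calls of lower genes over all tested genes fell from 205 to 36, 11 and 21. With the libraries rescaled to the same sum of FPKM, 0 enzymes were called although their median was lower, at -0.42.

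Hmgcs1, the enzyme that condenses acetyl-CoA units into HMG-CoA, had the largest fall among the enzymes (mm10 chromosome 13, 119690379 to 119708260, plus strand). It read 89.9, 82.06 and 101.43 FPKM in the WT pools, against 57.37, 56.63 and 59.76 in the A2ARKO pools. Every WT library lay above every A2ARKO library, and the A2ARKO pools lay within 1.06-fold of each other. The means were 91.1 ± 9.74 and 57.9 ± 1.64 FPKM (SD, n = 3), 1.57-fold lower in A2ARKO, with a log2 fold change of -0.64 with SE 0.11 (limma adjusted p = 0.0351). With A2ARKO replicate 1, 2 or 3 left out, the limma adjusted p was 0.120, 0.175 and 0.145.

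Mvd, which decarboxylates mevalonate diphosphate to the isoprenoid unit, also fell (chromosome 8, 122433601 to 122443422, minus strand). WT pools read 27.55, 31.73 and 28.53 FPKM, against 21.56, 19.68 and 19.76 in the A2ARKO pools. The groups did not overlap, and the fold was 1.44 lower in A2ARKO (log2 fold change -0.50, SE 0.090, limma adjusted p = 0.0381). Mvd did not pass without WT replicate 2 (limma adjusted p = 0.0711) or when A2ARKO replicate 1, 2 or 3 was left out (0.0970, 0.184 and 0.169).

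Cyp51, the lanosterol demethylase and the first oxidative step on the sterol ring, fell by a similar factor to Hmgcs1 (chromosome 5, 4081145 to 4104746, minus strand). WT pools read 55.18, 49.13 and 58.49 FPKM, against 34.36, 34.91 and 35.26 in the A2ARKO pools. The A2ARKO values lay close together and well below WT. The mean was 1.56-fold lower (log2 fold change -0.62, SE 0.095, limma adjusted p = 0.0270). Cyp51 passed whichever WT library was left out, but not when A2ARKO replicate 1, 2 or 3 was left out (limma adjusted p = 0.0991, 0.139 and 0.125).

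Tm7sf2, a sterol reductase of the next step, was expressed at a lower level and also fell (chromosome 19, 6062821 to 6068373, minus strand). It read 6.10, 5.85 and 6.42 FPKM in the WT pools, against 3.59, 4.12 and 4.20 in the A2ARKO pools. The groups were well separated, with a 1.54-fold lower mean in A2ARKO (log2 fold change -0.52, SE 0.087, limma adjusted p = 0.0324). It did not pass without WT replicate 2 (limma adjusted p = 0.0610) or when A2ARKO replicate 1, 2 or 3 was left out (0.101, 0.145 and 0.125). Of its annotated exon bases, 12.1% are shared with Vps51 on the same strand, which read 4.35 to 4.74 FPKM in all libraries.

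**Figure D3:**
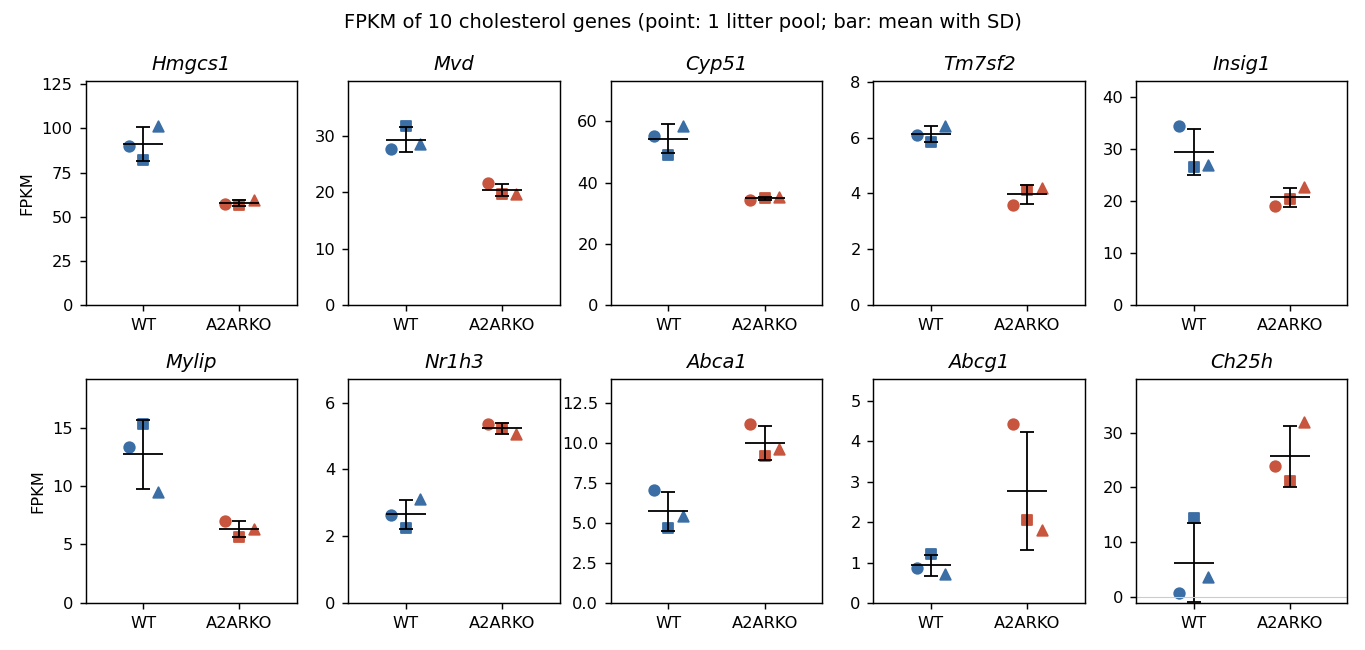
FPKM in each litter pool for 10 genes, with the group mean and SD as a bar (n = 3). The 10 panels show only genes whose WT and A2ARKO points do not overlap. Of the 31 tested genes, 11 lay lower in each A2ARKO library (35.5%, against 14.9% of all tested genes). A further 5 lay higher (16.1%, against 18.0%), and the others overlapped. Insig1, Abca1, Abcg1 and Ch25h did not pass limma's adjusted threshold.

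Sequences upstream of these enzymes are shown because SREBP binds promoters together with the factor NF-Y, whose site is the CCAAT box. RefSeq promoter windows (GRCm38.p6, the assembly of mm10; 250 bases before to 50 after each gene's start) were matched by symbol for 26 of the 32 genes, in 35 windows. CCAAT was searched on both strands, so ATTGG is the same box read from the other strand, and so was the core of the classic sterol element, TCACNCCAC; its match did not overlap a CCAAT box. The stretches below run up to the start or, for Cyp51, to the base where an annotated exon begins; capitals mark matches of either motif.
Hmgcs1, chr13:119690101-119690350, plus strand: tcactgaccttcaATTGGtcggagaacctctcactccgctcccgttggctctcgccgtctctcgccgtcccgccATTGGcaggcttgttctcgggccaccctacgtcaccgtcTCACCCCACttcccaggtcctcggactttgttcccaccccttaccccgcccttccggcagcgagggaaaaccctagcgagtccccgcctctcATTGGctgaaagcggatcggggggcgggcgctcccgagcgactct
Mvd, chr8:122443423-122443672, minus strand: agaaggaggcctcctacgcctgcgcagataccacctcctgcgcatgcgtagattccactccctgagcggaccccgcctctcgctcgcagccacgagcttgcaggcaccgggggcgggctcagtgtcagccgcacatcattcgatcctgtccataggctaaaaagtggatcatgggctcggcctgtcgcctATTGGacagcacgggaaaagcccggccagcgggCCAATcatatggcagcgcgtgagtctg
Cyp51, chr5:4104747-4104947, minus strand: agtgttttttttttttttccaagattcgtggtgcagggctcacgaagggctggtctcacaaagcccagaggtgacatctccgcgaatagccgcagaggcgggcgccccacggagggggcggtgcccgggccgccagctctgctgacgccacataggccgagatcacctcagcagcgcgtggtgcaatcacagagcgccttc
The Hmgcs1 stretch held a match to the sterol core, TCACCCCAC, 137 bases before the start, between CCAAT boxes at 176 and 45 bases before it. It was the only match to this core in the 35 windows; 1.24% of the 32851 windows of all genes had one. Mvd had CCAAT boxes 60 and 27 bases before the start, and that of Cyp51, 29 bases before the start, lies beyond the printed stretch in an annotated exon. No stretch is printed for Tm7sf2, whose upstream bases held only a short run outside annotated exons. Its window had a CCAAT box 47 bases before the start. All 14 synthesis enzymes with a window had a CCAAT box in at least 1 window (14 of 17 windows, 82.4%), against 41.1% of 27025 genes and 37.4% of all windows. Among the 12 control, transport and efflux genes with a window, 7 had one. A match is a description of the letters and not a measured binding site.

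The other mevalonate enzymes did not pass. Mvk, the mevalonate kinase, overlapped between the groups (20.3 ± 1.40 and 19.7 ± 1.59 FPKM, SD, n = 3), as did the phosphomevalonate kinase gene Pmvk (14.6 ± 0.992 and 12.8 ± 1.03 FPKM; limma adjusted p = 0.304). Fdps, which joins isoprenoid units to farnesyl diphosphate, read 3.59 ± 0.289 and 2.96 ± 0.290 FPKM (limma adjusted p = 0.237). Idi1, which interconverts the isoprenoid isomers, was below the filter, with 0.64, 0.58 and 1.04 FPKM in the WT pools, against 0.49, 0.62 and 0.55 in the A2ARKO pools. These FPKM correspond to about 88.5 to 192 reads per library. Fdps has processed pseudogenes and Idi1 a close relative, and how reads with more than 1 match were counted is not given, so the levels of both are uncertain. Of the exon bases of Fdps, 26.7% are shared on the same strand with Gm43738, which is listed at 0 in all 6 libraries.

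Among the 11 enzymes from squalene to cholesterol, Cyp51 and Tm7sf2 were called lower and 9 did not pass, with a median log2 fold change of -0.37. Squalene synthase, Fdft1, read 25.36, 24.7 and 24.51 FPKM in the WT pools, against 20.89, 20.43 and 21.29 in the A2ARKO pools. The groups were narrow and did not overlap, at a small difference (log2 fold change -0.24, SE 0.070, limma adjusted p = 0.105). Of its exon bases, 18.3% overlap Ctsb on the other strand, which read 123 to 390 FPKM. Squalene epoxidase, Sqle, an oxygen-dependent step that is rate-limiting, read 40.71, 32.16 and 36.3 FPKM in the WT pools, against 24.67, 28.25 and 29.99 in the A2ARKO pools. It too was lower in every A2ARKO library but did not pass (log2 fold change -0.38, limma adjusted p = 0.129). Ebp, a sterol isomerase, and Dhcr7, a late reductase, also lay lower in every A2ARKO library, at log2 fold changes of -0.40 and -0.40 (limma adjusted p = 0.138 and 0.0849). Without WT replicate 3, Dhcr7 passed (limma adjusted p = 0.0296).

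Other late enzymes overlapped between the groups. Msmo1, a methyl oxidase, read 31.27, 20.11 and 26.49 FPKM in the WT pools, against 17.32, 20.33 and 21.05 in the A2ARKO pools, so that WT replicate 2 lay among the A2ARKO values. Its log2 fold change was -0.37, and -0.23 without WT replicate 1. Sc5d, a desaturase, read 51.87 FPKM in WT replicate 1 but 27.24 and 31.74 FPKM in WT replicates 2 and 3, against 29.1 to 37 FPKM in A2ARKO. Its log2 fold change was -0.09 with all libraries and 0.18 without WT replicate 1. Nsdhl, a sterol dehydrogenase, stayed within 20.72 and 23.66 FPKM in all 6 libraries. Hsd17b7, a keto-sterol reductase, was the only tested enzyme with a log2 fold change above 0 (0.44, SE 0.19, limma adjusted p = 0.212). It read 10.44, 8.88 and 15.16 FPKM in the WT pools, against 16.47, 16.01 and 14.47 in the A2ARKO pools, and passed only when WT replicate 3 was left out (limma adjusted p = 0.0359). Lss, which closes squalene epoxide into lanosterol, lies 1.20 Mb from Adora2a on chromosome 10. It read 8.81 ± 1.32 and 7.74 ± 0.441 FPKM (SD, n = 3) and did not pass (log2 fold change -0.16, and -0.056 without WT replicate 1; limma adjusted p = 0.451).

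None of the 5 genes that control SREBP passed by limma. At an unadjusted p below 0.05 there were 2 of 5, Insig1 and Srebf2, against 24.7% of all tested genes. Insig1, which retains SCAP and is itself a target of SREBP, read 34.46, 26.61 and 27.01 FPKM in the WT pools, against 18.98, 20.48 and 22.68 in the A2ARKO pools. It was lower in every A2ARKO library, with a 1.42-fold lower mean (log2 fold change -0.48, SE 0.13, limma adjusted p = 0.0927). After rescaling to the same sum it passed (limma adjusted p = 0.0456). Srebf2, the gene of the SREBP that mainly drives cholesterol synthesis, read 68.91, 59.75 and 57.62 FPKM in the WT pools, against 50.19, 48 and 50.28 in the A2ARKO pools. The groups did not overlap (log2 fold change -0.32, limma adjusted p = 0.127).

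Insig2, the isoform whose transcription does not depend on SREBP, had a value above 0 (13.4 ± 2.99 and 17.7 ± 3.23 FPKM, SD, n = 3; limma adjusted p = 0.284). Scap overlapped between the groups, at 13.4 ± 2.42 and 13.35 ± 0.494 FPKM, and its log2 fold change of 0.011 turned to -0.040 without WT replicate 2. Srebf1, whose product mainly drives fatty acid synthesis, showed the widest spread of the 5. It read 83.08, 29.09 and 20.79 FPKM in WT replicates 1, 2 and 3, against 28.65, 31.19 and 34.91 in the A2ARKO pools. WT replicate 1, the library with the most cartilage marker RNA, lay above all others, and the log2 fold change of -0.23 turned to 0.34 without it. Across the 32 genes, WT replicate 1 was the highest of the WT libraries for 15, and for 4048 of the 11595 tested genes.

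**Figure D4:**
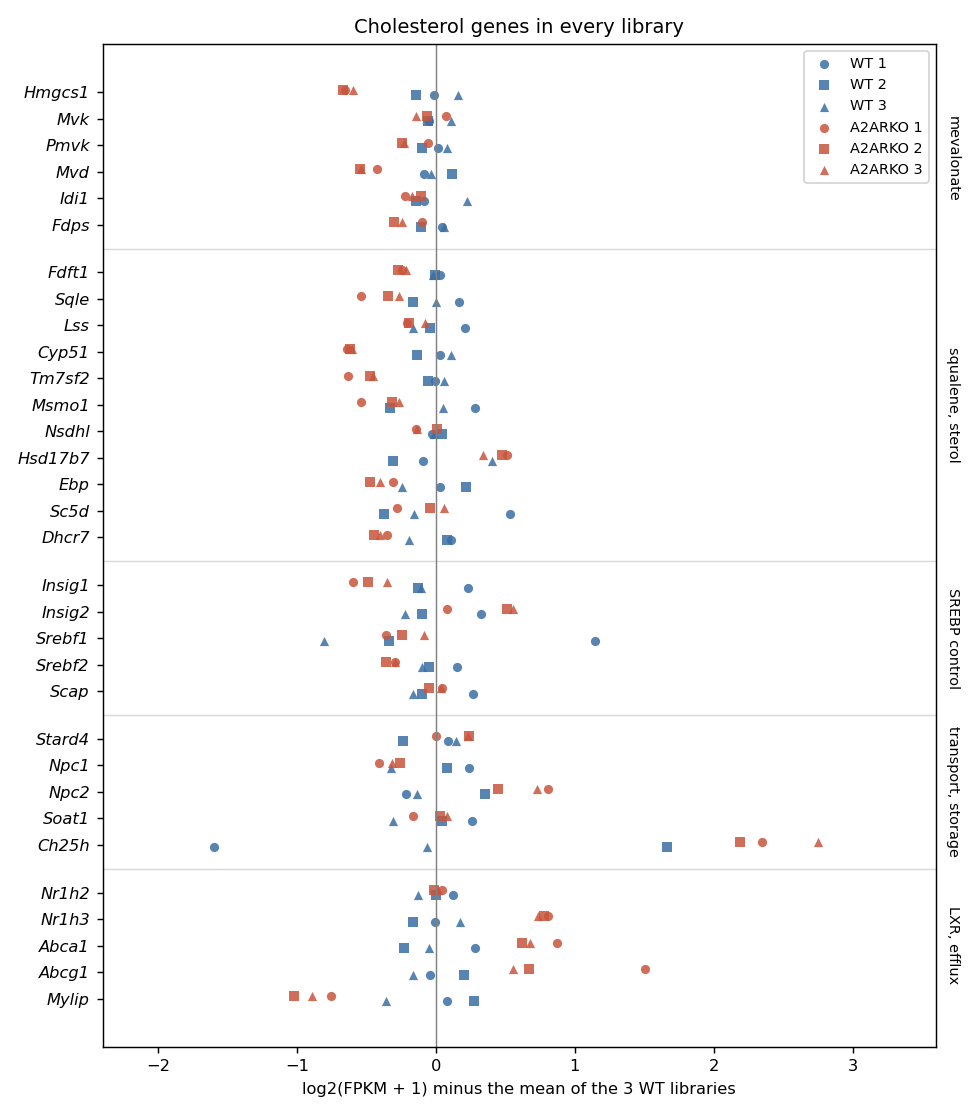
Each library's log2(FPKM + 1) minus the mean of the 3 WT libraries for the 32 genes, by role; blue symbols are WT and red A2ARKO pools, with the symbol shape giving the replicate. The red points of Hmgcs1, Mvd, Cyp51 and Tm7sf2 lie together left of all blue points, those of Nr1h3, Abca1, Abcg1 and Ch25h lie right of them, and Srebf1 and Ch25h show the widest blue spread.

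Nr1h3, which encodes LXR alpha, was the only gene of the set called higher (chromosome 2, 91184061 to 91202834, minus strand). It read 2.62, 2.24 and 3.11 FPKM in the WT pools, against 5.37, 5.25 and 5.05 in the A2ARKO pools. The 3 A2ARKO pools were nearly equal and all above WT. The mean was 1.97-fold higher (2.66 ± 0.436 and 5.22 ± 0.162 FPKM, SD, n = 3), which is a log2 fold change of 0.77 with SE 0.11 (limma adjusted p = 0.0210). Nr1h3 passed whichever WT library was left out, but not when A2ARKO replicate 1, 2 or 3 was left out (limma adjusted p = 0.0842, 0.114 and 0.101) after rescaling to the same sum (0.0792) or with no filter (0.0555). Nr1h2, which encodes LXR beta and was the more abundant per length, overlapped at 17.8 ± 1.64 and 18.0 ± 0.400 FPKM.

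The efflux pump genes read higher in every A2ARKO library but did not pass. Of the 5 genes of LXR and its targets, 3 lay higher in each A2ARKO library (60%, against 18.0% of all tested genes). Another, Mylip, lay lower (20%, against 14.9%). At an unadjusted p below 0.05 there were 4 of the 5, against 24.7% of all tested genes. Abca1, which loads cholesterol onto lipid-poor apolipoprotein, read 7.07, 4.67 and 5.41 FPKM in the WT pools, against 11.19, 9.19 and 9.61 in the A2ARKO pools. The mean was 1.75-fold higher (log2 fold change 0.72, SE 0.15, limma adjusted p = 0.0533), and it passed without WT replicate 1 (0.0218). Abcg1, which passes cholesterol to lipoprotein particles, read 0.86, 1.21 and 0.71 FPKM in the WT pools, against 4.44, 2.05 and 1.81 in the A2ARKO pools. Its groups did not overlap, with A2ARKO replicate 1 far above the other 2 (log2 fold change 0.91, SE 0.27, limma adjusted p = 0.110). Of the WT libraries only replicate 2 reached the 1 FPKM that the filter asks for, so Abcg1 passed it mainly through the A2ARKO libraries.

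Mylip fell, where Nr1h3 rose (chromosome 13, 45389742 to 45412022, plus strand). It read 13.3, 15.34 and 9.51 FPKM in the WT pools, against 6.98, 5.64 and 6.28 in the A2ARKO pools, with no overlap. The mean was 2.02-fold lower (12.7 ± 2.96 and 6.30 ± 0.670 FPKM, SD, n = 3), which is a log2 fold change of -0.89 with SE 0.18 (limma adjusted p = 0.0476). Mylip also passed after rescaling to the same sum (limma adjusted p = 0.0322). It did not pass without WT replicate 1 or 2 (0.0688 and 0.0842) or when A2ARKO replicate 1, 2 or 3 was left out (0.124, 0.190 and 0.173).

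Markers of cell types that can hold much LXR RNA also moved between libraries. The macrophage list was lower in A2ARKO, opposite to Nr1h3, Abca1 and Abcg1. Of its 10 tested markers, 9 lay lower in each A2ARKO library (90%, against 14.9% of all tested genes). Limma called 0 of the 10, and 8 had an unadjusted p below 0.05, against 24.7% of all tested genes. Only 2 of the 12 listed markers reached 1 FPKM in all 6 libraries. C1qb read 0.29, 0.11 and 0.03 FPKM in A2ARKO and passed the filter only through the WT libraries. For such markers the filter itself fixed the lack of overlap, so the shares are not like for like. WT replicate 2, with the most macrophage RNA (Lyz2 at 1434 FPKM), had the lowest WT values of Nr1h3 and Abca1 and the highest of Abcg1 and Mylip. The summed FPKM of 6 adipocyte markers was 88.0, 128 and 117 in WT and 275, 105 and 188 in A2ARKO replicates 1, 2 and 3, with none at 0 throughout. Of the 6, 5 had log2 fold changes above 0 (median 0.79), and 2 lay higher in each A2ARKO library (33.3%, against 18.0% of all tested genes). An unadjusted p below 0.05 was seen for 3 of the 6, against 24.7% of all tested genes, and 0 were called by limma. Fabp4, a fatty acid binding protein of adipocytes, read 13.49, 15.59 and 16.26 FPKM in the WT pools, against 56.03, 22.98 and 36.51 in the A2ARKO pools. This is the same direction as Nr1h3, Abca1 and Abcg1. Lpl, the adipocyte marker with the highest mean, overlapped between the groups (log2 fold change -0.0067, limma adjusted p = 0.983). Cfd, the next highest, also overlapped (1.55, limma adjusted p = 0.163). A2ARKO replicate 1, the highest in adipocyte markers, was also the highest in Abcg1, Abca1 and Nr1h3. A2ARKO replicate 2, with an adipocyte sum below those of WT replicates 2 and 3, read Nr1h3 at 5.25 and Abca1 at 9.19 FPKM. Both values lay above every WT library. A2ARKO replicate 3, the next highest in the adipocyte sum, had the lowest A2ARKO values of Nr1h3 (5.05 FPKM) and Abcg1 (1.81 FPKM). The part of these markers in the results was not tested.

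Genes of transport inside the cell, storage and oxysterol formation showed no call among 5 tested. At an unadjusted p below 0.05 there were 2 of 5, Npc2 and Ch25h, against 24.7% of all tested genes. Ch25h, which makes 25-hydroxycholesterol, an oxysterol that holds back SREBP and activates LXR, had the largest difference of the 32 genes and the widest spread in WT. It read 0.61, 14.46 and 3.66 FPKM in WT replicates 1, 2 and 3, against 23.89, 21.26 and 31.92 in the A2ARKO pools. Every A2ARKO library lay above every WT library, and the WT libraries differed 23.7-fold among themselves; WT replicate 1 rested on about 35.2 reads. The mean was 4.11-fold higher (6.24 ± 7.28 and 25.7 ± 5.55 FPKM, SD, n = 3), which is a log2 fold change of 2.43 with SE 0.78 (limma adjusted p = 0.127). Without WT replicate 2 it passed, at 3.26 (limma adjusted p = 0.0424). Of the exon bases of Ch25h, 11.5% overlap Gm26902 on the other strand. Gm26902 read 0.06, 0.54 and 0.22 FPKM in the WT pools, against 0.90, 0.79 and 1.02 in the A2ARKO pools. Its part in the Ch25h values was not tested. Cyp7b1, which breaks down that oxysterol and was named after its values were seen, overlapped between the groups (1.16, 16.23 and 8.1 FPKM in WT; 12.33, 7.46 and 10.24 FPKM in A2ARKO) and was lowest in WT replicate 1, as was Ch25h.

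NPC2 and NPC1 hand cholesterol out of the lysosome. Npc2 was the most abundant gene of the set per length and read 124.11, 185.32 and 131.12 FPKM in the WT pools, against 253.84, 197.67 and 240.23 in the A2ARKO pools. It was higher in every A2ARKO library, 1.57-fold in the mean, but did not pass (log2 fold change 0.66, SE 0.20, limma adjusted p = 0.115). Npc1 overlapped between the groups, at 8.73 ± 1.88 and 6.65 ± 0.392 FPKM (SD, n = 3; limma adjusted p = 0.257). Without WT replicate 3 it was called lower (limma adjusted p = 0.0479). Stard4, a sterol carrier, and Soat1, which esterifies cholesterol for storage, overlapped and had log2 fold changes of 0.16 and -0.02 (limma adjusted p = 0.513 and 0.961). Without WT replicate 1 Soat1 was at 0.11, and without WT replicate 2 Stard4 was at 0.042.

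The litter pools of A2ARKO resembled each other more than those of WT. The SD of log2(FPKM + 1) was smaller in A2ARKO for 25 of the 32 genes, or 78.1%, and for 78.9% of all tested genes. The median SD over the 32 genes was 0.195 in WT and 0.101 in A2ARKO, close to 0.192 and 0.0966 over all tested genes.

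Neighbouring pathways were read from further fixed lists, where the median over all tested genes was 0.0020, 5.08% were called and 24.7% had an unadjusted p below 0.05. Of 14 genes of fatty acid synthesis and desaturation, 1 was called lower, 0 higher and 13 did not pass (median log2 fold change -0.02, with 5 at an unadjusted p below 0.05). Of the 14, 5 lay lower in each A2ARKO library (35.7%, against 14.9% of all tested genes) and 0 higher. Elovl6, a fatty acid elongase that SREBP also drives, fell from 13.6 ± 1.09 to 9.29 ± 0.617 FPKM (SD, n = 3; log2 fold change -0.51, limma adjusted p = 0.0399). It did not pass without WT replicate 2 or 3 (limma adjusted p = 0.0805 and 0.0585) or when A2ARKO replicate 1, 2 or 3 was left out (0.130, 0.134 and 0.171). Of 11 genes of SREBP processing and turnover none passed by limma (median 0.09; 3 at an unadjusted p below 0.05). In that list Rnf139, a ubiquitin ligase of the endoplasmic reticulum, and Ubxn8 had the smallest p, at log2 fold changes of -0.79 and 0.39 (limma adjusted p = 0.159 and 0.167).

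The isoprenoid branch leaves the pathway before squalene and serves prenylation and ubiquinone. None of its 14 genes passed by limma (median 0.09; 2 at an unadjusted p below 0.05), and 10 lay above 0. Of the 14, 5 lay higher in each A2ARKO library (35.7%, against 18.0% of all tested genes) and 0 lower. Rabggta, a subunit of Rab prenyltransferase, and Coq2, of ubiquinone synthesis, had the smallest p, at 0.55 and 0.36 (limma adjusted p = 0.0582 and 0.0748). Among 16 tested genes of other sterol handling none passed by limma (median -0.10; 3 at an unadjusted p below 0.05), with the thiolase gene Acat1 at -0.38 and the sterol transfer gene Gramd1b at -0.65 (limma adjusted p = 0.142 and 0.186). Of 6 tested partners of LXR none passed by limma (median -0.17; 2 at an unadjusted p below 0.05), with the corepressor gene Nrip1 at 0.60 and the retinoid X receptor gene Rxrb at -0.28 (limma adjusted p = 0.114 and 0.148).

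**Figure D5:**
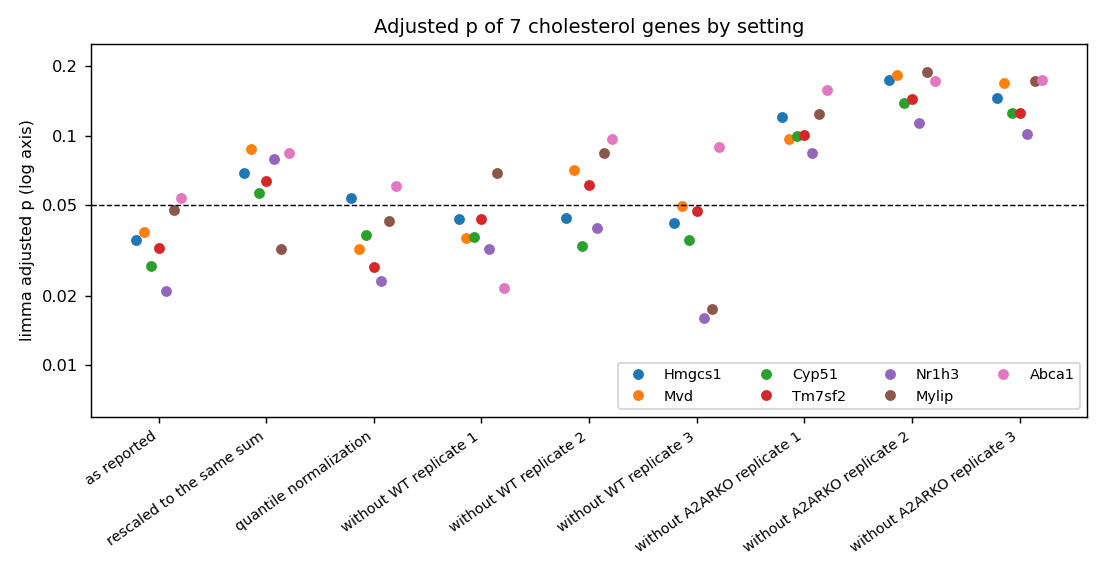
Limma adjusted p (log axis; dashed line at 0.05) of the 6 called genes and Abca1 with all libraries, after 2 other scalings and with each library left out. All 7 genes lie above the line in each fit without an A2ARKO library, where calls over all tested genes also fell.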

How the data were processed

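RNA sequencing (Illumina, per the labels' protocols) of 6 libraries was deposited by the authors as 1 table of FPKM rounded to 2 decimals. HTSeq and mm10 are named in the submitters' processing notes; the sources used here do not give the aligner, versions, annotation, gene lengths, totals or strand setting, so reads of overlapping genes cannot be told apart. FPKM hold no count error, and very abundant transcripts lower the others. Columns were assigned by title. Genes with at least 1 FPKM in at least 3 of 6 libraries (11595) were tested with limma 3.58.1 in R 4.3.3 (eBayes with an intensity trend, two-sided, no replicate block) on log2(FPKM + 1), with Benjamini-Hochberg adjustment over all of them and calls at an adjusted p below 0.05; the fit was tested on simulated data. Fold changes on this scale understate those of low genes; folds named as such are ratios of mean FPKM. Depth came from steps in genes of at most 150 exonic bases, where at least 99.6% of values up to 10 reads were whole within 0.1 read; approximate reads used GENCODE M21 exon lengths. No pair of libraries was as alike as sampling noise (smallest median chi-square ratio 20.5). The members and lists were chosen with earlier results of these data known. Genes named are all members, Adora2a, and from each other list the largest calls or the smallest p, or for marker lists those with the highest mean. Alternatives were other pseudocounts, filters and scalings, no trend, a replicate block and each library left out.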

Additional observations from a re-analysis of the deposited data

How the results depend on the processing

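With the replicate number as a block (numbers that mark nothing shared in the labels; correlations of same-numbered pairs of -0.521, -0.325 and -0.387), 1 gene was called higher and 1 lower over all genes, 0 and 0 of the cholesterol genes, and 0 enzymes; Adora2a was at -2.25 (limma adjusted p = 0.121). With no filter the counts were 143 and 70 over all genes, 0 higher and 1 lower (Cyp51) of the cholesterol genes and 1 enzyme, with Adora2a at -2.25 (adjusted p = 0.0533). After rescaling to the same sum, which moved the median of all genes from 0.0020 to -0.10, 178 genes were called higher and 170 lower (51.1% higher, against 65.2% of 384 and 205, and 53.8% after quantile normalization), 0 cholesterol genes higher, 2 lower (Insig1 and Mylip) and 0 enzymes; medians were -0.29 for the cholesterol genes and -0.42 for the enzymes. With each library left out in turn, 39 to 568 genes were called higher and 11 to 362 lower, 0 to 2 cholesterol genes higher and 0 to 7 lower, and 0 to 1 enzymes higher and 0 to 5 lower; medians ranged from -0.25 to -0.10 for the cholesterol genes and from -0.32 to -0.23 for the enzymes, and Adora2a from -2.60 to -1.99 (adjusted p above 0.05 without WT replicate 2 and without each A2ARKO replicate). With WT replicate 3 as the only WT library, an alternative chosen after seeing the data in which that library is assumed to vary like the A2ARKO libraries, 2 cholesterol genes were called higher (Nr1h3 and Ch25h) and 2 lower (Hmgcs1 and Cyp51, so 2 enzymes), with medians of -0.074 and -0.24. Signs turned in these fits only for genes that were not called: there Lss was at 0.0076, Sc5d at 0.071, Srebf1 at 0.58 and Soat1 at 0.29. Scap was at -0.10 and Nr1h2 at -0.10 after rescaling to the same sum, at -0.028 and -0.030 after quantile normalization, and Scap at -0.0041 after rescaling by the median ratio. With each library left out, Scap ranged from -0.071 to 0.15, Nr1h2 from -0.047 to 0.079, Sc5d from -0.27 to 0.18, Srebf1 from -0.63 to 0.34, Soat1 from -0.17 to 0.11 and Mvk from -0.10 to 0.011. The cause of these changes was not tested. With the other pseudocount, the median ratio scaling and no trend, the 6 called genes were called again. Hmgcs1, Mvd, Cyp51, Tm7sf2 and Nr1h3 had adjusted p of 0.0684, 0.0878, 0.0565, 0.0634 and 0.0792 after rescaling to the same sum, Hmgcs1 0.0534 after quantile normalization and Mylip 0.0515 with the filter on mean FPKM. Depth limits chiefly Idi1, the lowest Ch25h library, and Abcg1 and Nr1h3, whose lowest libraries held about 261 and 274 reads.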
